A study of Homo sapiens with 21 samples.

Results

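The genes described here are 9 classic transcriptional targets of the tumour suppressor p53: CDKN1A, MDM2, GDF15, SESN1, BBC3, TP53I3, ZMAT3, FAS and RRM2B. They were taken as the rows of the count table whose gene name is one of these symbols, and each symbol was found once, which gave 9 of 58233 genes. The rule itself uses no measured value, but the 9 symbols were chosen with earlier results of these data known.

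The cells were Panc-1, an established human cell line from a carcinoma of the pancreatic duct. Cultures had been passaged for 4 months in rising concentrations of a drug and then cloned by dilution. ATUX8H and ATUX9D came out of ATUX, SMAP8D, SMAP9C and SMAP6G out of SMAP, and Sor6G and Sor9H out of Sorafenib, a multikinase inhibitor that acts on RAF and VEGF receptors. The series' design text calls all 3 drugs activators of the phosphatase PP2A, and the title asks how lasting exposure affects expression. Every clone carried the same Panc-1 background and stood in 8 µM of its drug when it was sampled in 3 repeat libraries, which makes 6 ATUX, 9 SMAP and 6 Sorafenib libraries. Cells without a drug were not analysed here, and all values compare one resistant clone or drug with another. Each line is 1 clone, the clones were selected with the help of qRT-PCR, and those of 1 drug may stem from the same culture.

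p53 is a transcription factor that binds paired half-sites in DNA and switches on genes for cell cycle arrest, apoptosis, DNA repair and metabolism when cells are stressed. MDM2, one of its targets, is the ubiquitin ligase that marks p53 for degradation, which closes a feedback loop. Some targets are known to answer to other signals as well, among them TGF-beta for CDKN1A and the integrated stress response for GDF15.

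The libraries held 21022621 to 27691256 counts, of which mitochondrial genes took 3.19 to 5.22%. The third libraries of both ATUX clones stood apart from the first and second of the same clone, with a chi-square per degree of freedom of 20.3 to 30.1, against 3.60 to 3.84 between the first and second. The third library of Sor9H gave 14.0 to 15.6 against its first and second. Of 9 duct epithelium markers, 8 reached 1 CPM (read counts scaled to library size with TMM factors) in ATUX clones, 8 in SMAP clones and 7 in Sorafenib clones, while CFTR was at 0 in every library. Their summed level was 7153 to 13351 CPM in ATUX clones, 1492 to 3264 CPM in SMAP clones and 3486 to 5178 CPM in Sorafenib clones. Markers of immune cells summed to at most 3.32 CPM and those of endothelial cells to at most 1.44 CPM in any clone, and CD3E was at 0. Those of stromal fibroblasts summed to 20.4 to 51.1 CPM in ATUX, 50.5 to 185.5 CPM in SMAP and 14.8 to 22.1 CPM in Sorafenib libraries.

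Promoter sequences were compared with the p53 consensus because the members are defined as p53 targets. RefSeq promoter windows of GRCh38.p14, which run from 250 bases before to 50 bases after a start site, matched 8 of the 9 members with 16 windows, and RRM2B was the member without a match. A full site was counted where the 20 letters of the p53 consensus, made of both 10-letter half-sites with no spacer, were met with at most 3 mismatches. The consensus reads the same on both strands. Of the 16 windows, 5 held a full site, against 5.2% of all 35116 windows searched, and 2 of the 5 are overlapping windows of MDM2 with the same sites. The 250 bases before the start of the intronic MDM2 promoter (chr12:68808767-68809016, plus strand) and before a start in FAS (chr10:88991181-88991430, plus strand) are shown with the full sites in capitals.
MDM2: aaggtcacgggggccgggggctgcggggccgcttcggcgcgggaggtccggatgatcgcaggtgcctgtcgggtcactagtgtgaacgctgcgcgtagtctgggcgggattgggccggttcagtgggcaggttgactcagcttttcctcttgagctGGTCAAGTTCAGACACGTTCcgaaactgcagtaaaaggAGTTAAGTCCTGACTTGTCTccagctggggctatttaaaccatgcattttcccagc
FAS: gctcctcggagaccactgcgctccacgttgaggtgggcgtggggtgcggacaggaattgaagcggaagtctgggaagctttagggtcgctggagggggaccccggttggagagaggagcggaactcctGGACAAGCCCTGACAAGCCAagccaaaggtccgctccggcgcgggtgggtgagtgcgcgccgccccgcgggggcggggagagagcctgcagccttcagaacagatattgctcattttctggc

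The sites themselves are given next with capitals for the letters that meet the consensus and lower case for the mismatches. The first MDM2 site began at -94 and had 2 mismatches, and the other began at -56 and had 3. The FAS site began at -122 with 2 mismatches. SESN1 (chr6:109009018-109009037, minus strand) had a site with 3 mismatches at -49, and GDF15 (chr19:18386186-18386205, plus strand) had one with 3 mismatches at position 29 after its start.
MDM2 site at -94: GGtCAAGTTCAGACAcGTTC
MDM2 site at -56: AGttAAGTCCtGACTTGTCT
FAS site at -122: GGACAAGCCCtGACAAGCCa
SESN1 site at -49: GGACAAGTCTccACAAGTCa
GDF15 site at 29: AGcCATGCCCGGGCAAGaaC
The windows of CDKN1A, TP53I3, ZMAT3 and BBC3 held no full site under this rule, which says only that these letters are not in these windows. The p53 elements known for CDKN1A lie further upstream.

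**Figure D1:**
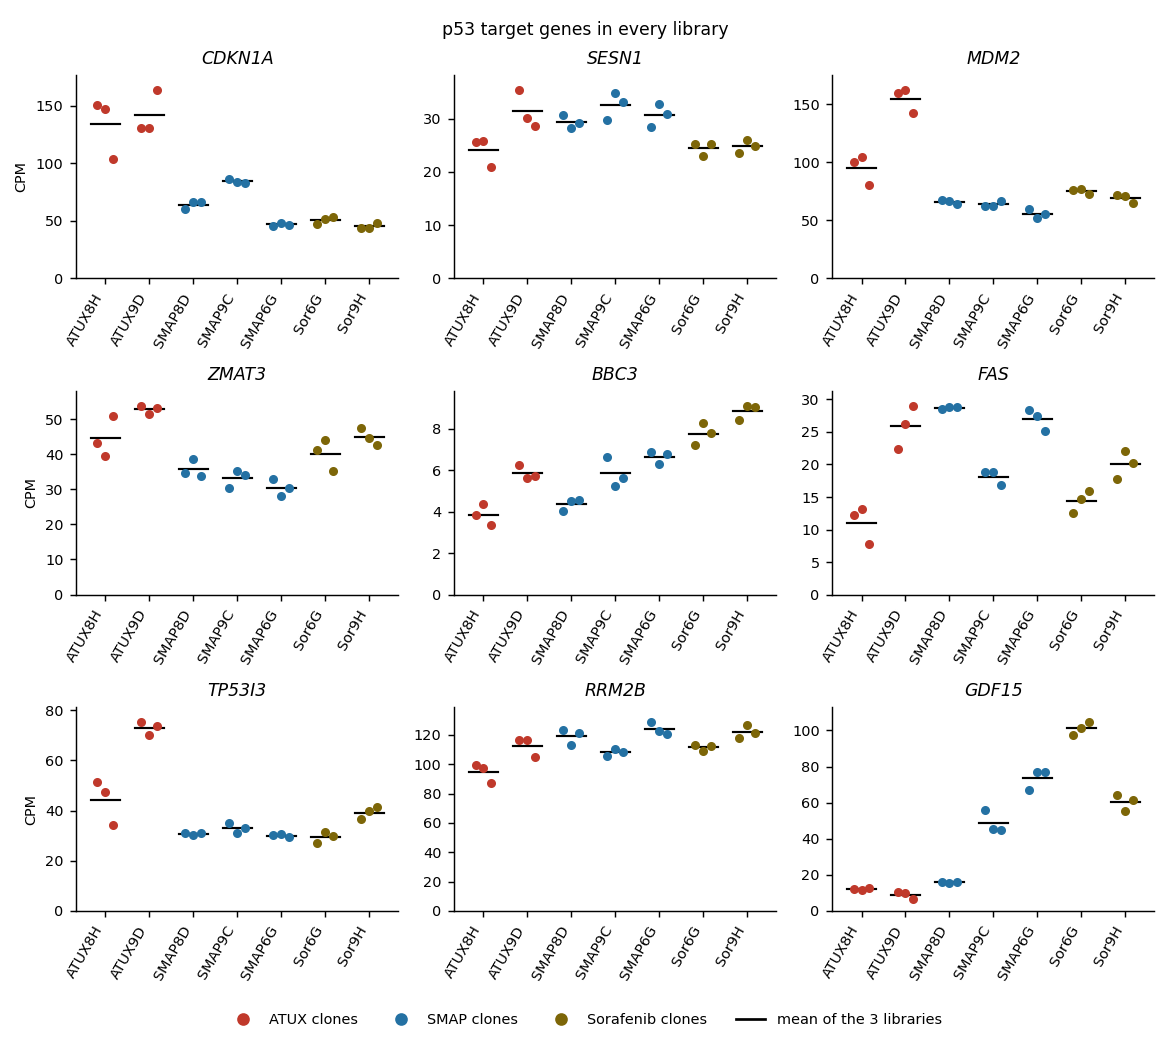
CPM of the 9 targets (vertical axes, from 0) in each of the 21 libraries, by clone; points are libraries and bars the mean of a clone's 3 libraries. CDKN1A and MDM2 stand highest in both ATUX clones, and GDF15 is at 6.33 to 16.2 CPM in ATUX8H, ATUX9D and SMAP8D and at 44.9 CPM or more in the other clones.

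ATUX clones had higher CDKN1A, MDM2, TP53I3 and ZMAT3 than SMAP clones, by 1.49 to 2.15 times. With clones as replicates (2 against 3), 4 of the 9 targets rose and 0 fell, where 10.3% of the 18613 genes tested were called. The median log2 fold change of the 9 was -0.13, against 0.02 over all genes tested. In these bulk libraries, fewer cells with a transcript and less of it per cell cannot be told apart, here and below.

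CDKN1A encodes p21, the inhibitor of cyclin-dependent kinases that carries out p53-dependent arrest. It ran from 103.6 to 164.2 CPM with a median of 139.1 in ATUX libraries, against 45.8 to 86.6 CPM with a median of 66 in SMAP libraries. The groups did not overlap. Repeats of a clone are not replicates of the drug, and the share of all genes without such overlap was not counted, here and below. Over clones CDKN1A averaged 137.9 ± 5.69 CPM in ATUX (SD, n = 2) and 65.1 ± 18.8 CPM in SMAP (SD, n = 3), a log2 fold change of 1.11 ± 0.23 (SE, edgeR adjusted p = 0.0316).

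MDM2, the p53 ubiquitin ligase, ran from 80.6 to 162.7 CPM with a median of 123.4 in ATUX libraries, against 52.2 to 67.1 CPM with a median of 62 in SMAP libraries, again with no overlap. Its clone means were 125.1 ± 42.2 CPM in ATUX and 61.8 ± 5.34 CPM in SMAP, a log2 fold change of 1.05 ± 0.21 (adjusted p = 0.0292). ATUX9D lay above ATUX8H in every library. MDM2 overlaps the carboxypeptidase M gene on the opposite strand, which drew 2911 counts over all libraries against 41042 for MDM2.

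TP53I3 encodes PIG3, a quinone oxidoreductase linked to p53-dependent oxidative stress. It overlaps FAM228B on the opposite strand, which drew 2892 counts over all libraries against 19695 for TP53I3. Its ATUX libraries ran from 34.2 to 75.2 CPM with a median of 60.7, against 29.3 to 35.0 CPM with a median of 30.9 in SMAP libraries. Repeat 3 of ATUX8H was the only ATUX library within the SMAP range. The log2 fold change was 0.94 ± 0.23 (adjusted p = 0.048), and it was 0.92 (adjusted p = 0.0509) with RLE size factors.

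ZMAT3 encodes a zinc finger protein that binds RNA. It ran from 39.5 to 53.8 CPM in ATUX libraries with a median of 51.2, against 28.2 to 38.7 CPM with a median of 33.7 in SMAP libraries. The libraries did not overlap, and the log2 fold change of 0.58 ± 0.13 (adjusted p = 0.0421) was the smallest of the 4 called. It was 0.52 (adjusted p = 0.0675) without the third ATUX libraries.

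These 4 calls depended on single clones. CDKN1A lost its call without ATUX8H, ATUX9D, SMAP8D, Sor6G or Sor9H (adjusted p = 0.0769, 0.0939, 0.0905, 0.0639 and 0.0629), with log2 fold changes of 1.06 to 1.13. MDM2 was at 0.64 on the log2 scale without ATUX9D (adjusted p = 0.0625) and was at 0.98 to 1.10 without SMAP8D, SMAP9C, SMAP6G, Sor6G or Sor9H (adjusted p = 0.0718, 0.0909, 0.0711, 0.0568 and 0.0566). TP53I3 was at 0.52 without ATUX9D (adjusted p = 0.158) and at 0.91 to 0.97 without any 1 of the SMAP or Sorafenib clones (adjusted p from 0.068 to 0.123). ZMAT3 lost its call without any 1 of the 7 clones, with log2 fold changes of 0.43 to 0.69 and adjusted p from 0.0522 to 0.156.

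The other 5 targets were not called by edgeR on the clone sums between ATUX and SMAP clones. GDF15, a secreted cytokine of the TGF-beta superfamily released by stressed cells, had the largest difference of the 9. Its libraries ran from 6.33 to 12.6 CPM in ATUX clones with a median of 10.9, against 15.7 to 77.1 CPM with a median of 45.3 in SMAP clones. The libraries did not overlap, but the SMAP clones differed among themselves, and the log2 fold change of -2.10 had a 95% interval of -3.60 to -0.60 (edgeR adjusted p = 0.0826). GDF15 was called lower by DESeq2 (adjusted p = 0.000833), by limma-voom (0.0159) and by edgeR without SMAP8D (-2.51, adjusted p = 0.0332). SESN1, a sestrin that restrains mTORC1, differed by -0.13 (interval -0.47 to 0.22). BBC3, which encodes the BH3-only protein PUMA, differed by -0.18 (interval -0.85 to 0.49). The death receptor gene FAS differed by -0.39 (interval -1.33 to 0.55), and RRM2B, the p53-inducible small subunit of ribonucleotide reductase, by -0.15 (interval -0.45 to 0.15).

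**Figure D2:**
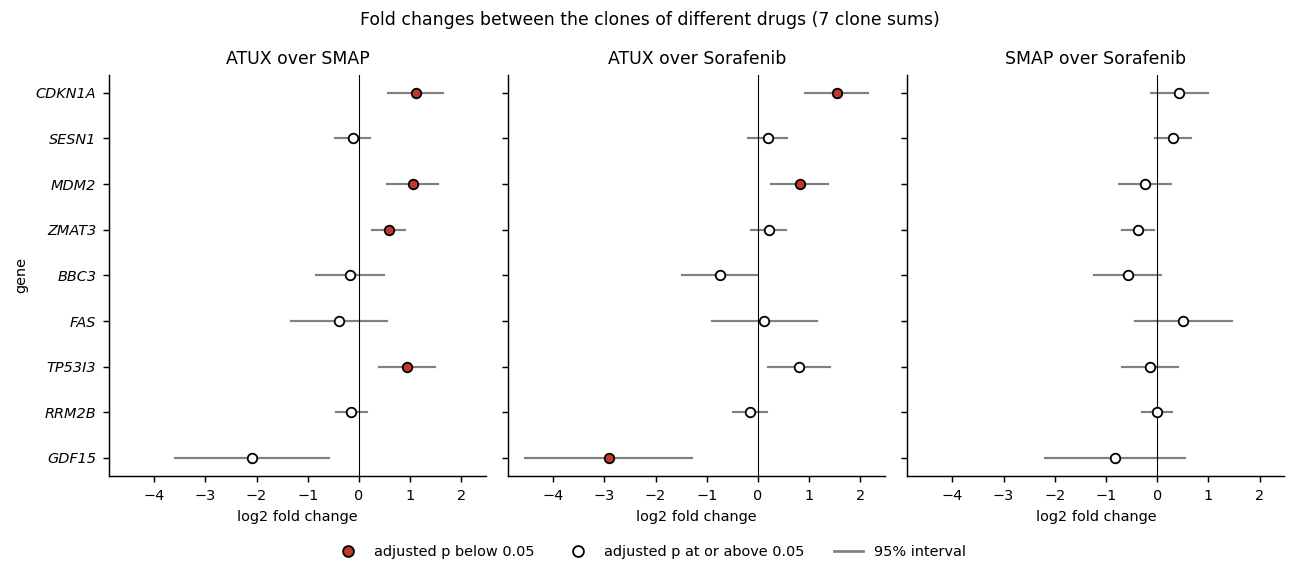
Log2 fold changes (horizontal axes) of the 9 targets between the clones of different drugs, with 95% intervals from edgeR on 7 clone sums; filled points passed an adjusted p of 0.05. CDKN1A and MDM2 are filled to the right of 0 in both ATUX comparisons, and none of the 9 targets is filled in the SMAP over Sorafenib panel.

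Against Sorafenib clones, ATUX clones had more CDKN1A and MDM2 and less GDF15. Of the 9 targets, 2 rose and 1 fell, where 25.8% of genes tested were called. The median log2 fold change was 0.19 for the 9 and 0.01 over all genes tested. The ATUX clones are the same as in the comparison with SMAP clones.

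CDKN1A ran from 103.6 to 164.2 CPM in ATUX libraries, against 43.7 to 53.1 CPM with a median of 47.9 in Sorafenib libraries. Its clone means were 137.9 ± 5.69 CPM in ATUX and 48.0 ± 3.73 CPM in Sorafenib (SD, n = 2 each). The difference of 1.54 ± 0.26 on the log2 scale, 2.90-fold, had an adjusted p of 0.0096, and the call was lost without Sor9H (1.44, adjusted p = 0.0697).

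MDM2 averaged 125.1 ± 42.2 CPM in ATUX and 72.3 ± 4.29 CPM in Sorafenib, with libraries of 80.6 to 162.7 CPM in ATUX and 64.9 to 76.8 CPM in Sorafenib that did not overlap. The log2 fold change was 0.81 ± 0.23 (adjusted p = 0.0459). It was 0.40 without ATUX9D (adjusted p = 0.14), and the call was also lost without SMAP8D, SMAP9C, SMAP6G, Sor6G or Sor9H (adjusted p = 0.0714, 0.0727, 0.0647, 0.13 and 0.192).

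GDF15 fell in ATUX clones, at 6.33 to 12.6 CPM in ATUX libraries against 55.2 to 104.5 CPM with a median of 80.9 in Sorafenib libraries. The clone means were 10.5 ± 2.2 CPM in ATUX and 80.7 ± 28.9 CPM in Sorafenib, a log2 fold change of -2.92 ± 0.68 (adjusted p = 0.0252). The call was lost without ATUX8H, ATUX9D, Sor6G or Sor9H (adjusted p = 0.0829, 0.124, 0.0987 and 0.0693), and with no filter on low counts (-2.93, adjusted p = 0.11).

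TP53I3 was 0.79 higher on the log2 scale (interval 0.19 to 1.40, adjusted p = 0.0604) and BBC3 -0.75 (interval -1.48 to -0.02, adjusted p = 0.114), neither of them called by edgeR on the clone sums. TP53I3 was called higher by DESeq2 (adjusted p = 0.0281), by limma-voom (0.0126) and by edgeR without ATUX8H (1.10, adjusted p = 0.0156) or without the third ATUX libraries (0.84, adjusted p = 0.0334), and BBC3 was called lower by limma-voom (0.0123). The BBC3 libraries did not overlap, at 3.36 to 6.26 CPM in ATUX and 7.2 to 9.11 CPM in Sorafenib. SESN1 differed by 0.19, ZMAT3 by 0.20, FAS by 0.12 and RRM2B by -0.16, with adjusted p of 0.411, 0.336, 0.857 and 0.427.

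Between SMAP and Sorafenib clones, edgeR called 0 of the 9 targets, although 34.5% of all genes tested were called. Only ZMAT3 had an unadjusted p below 0.05, which makes 1 of 9, DESeq2 called 0 and limma-voom with a random effect of clone called 2. ZMAT3 was at 33.1 ± 2.59 CPM in SMAP (SD, n = 3) and 42.6 ± 3.41 CPM in Sorafenib (SD, n = 2), a log2 fold change of -0.37 (interval -0.69 to -0.06, adjusted p = 0.0699). The intervals of the others leave room for sizeable differences, from -2.18 to 0.54 for GDF15, from -0.13 to 0.98 for CDKN1A and from -0.44 to 1.46 for FAS. The narrowest was that of RRM2B, from -0.31 to 0.29. Libraries did not overlap for SESN1, at 28.2 to 34.8 CPM in SMAP and 23.0 to 26.0 CPM in Sorafenib, nor for BBC3, at 4.03 to 6.87 CPM in SMAP and 7.2 to 9.11 CPM in Sorafenib. With the 21 libraries taken as replicates, 70.0% of all genes were called in this comparison.

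The low GDF15 of ATUX clones came with low levels of the genes around it on chromosome 19 (GDF15 at 18374731 to 18389176, plus strand). Of 59 tested genes within 1 Mb, 37 were called lower and 0 higher in ATUX than in SMAP clones, with a median of -1.31 on the log2 scale, and 55 had values below 0. Against Sorafenib clones, 27 of the 59 were called lower and 3 higher, with a median of -1.03. GDF15 minus the median of its neighbours was -0.79 on the log2 scale for ATUX over SMAP and -1.89 for ATUX over Sorafenib. In the comparison of SMAP with Sorafenib clones, the median of the neighbours was 0.41 and GDF15 was at -0.82. Whether the neighbourhood has a part in the GDF15 difference was not tested.

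In both ATUX comparisons the neighbours of CDKN1A and MDM2 had medians closer to 0. Around CDKN1A, 25 neighbours had medians of -0.14 against SMAP and 0.30 against Sorafenib, where CDKN1A itself stood at 1.11 and 1.54. Of the 25, 1 was called higher and 2 lower against SMAP, and 7 higher and 2 lower against Sorafenib. Around MDM2, 13 neighbours had medians of 0.13 and 0.35, where MDM2 stood at 1.05 and 0.81. Of the 13, 1 was called higher against SMAP and 3 against Sorafenib, with 0 lower in either. Against Sorafenib, 4 of the 13 lay above MDM2 itself. The 17 neighbours of TP53I3 had medians of 0.14 and 0.01, and the 12 of ZMAT3 0.18 and 0.14.

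**Figure D3:**
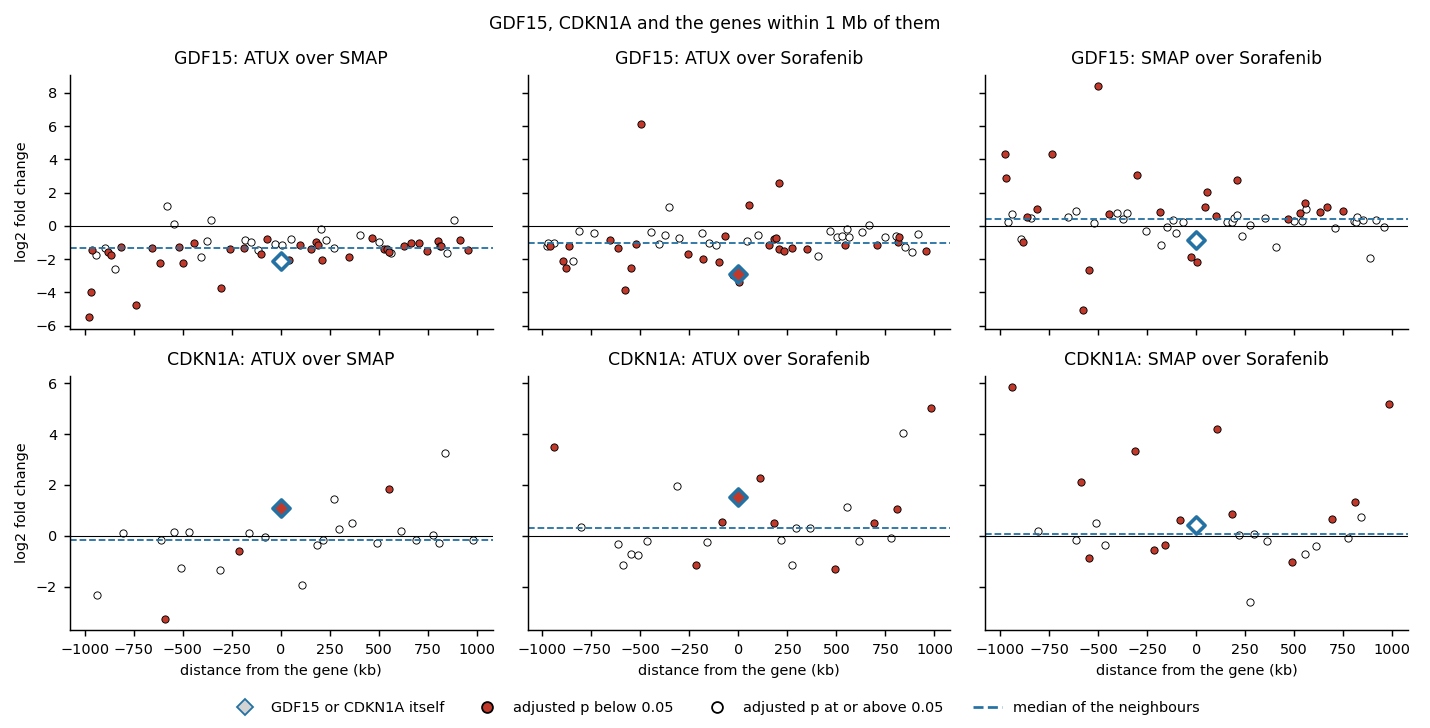
Log2 fold change (vertical axes) of the tested genes within 1 Mb of GDF15 (top row, 59 genes) and CDKN1A (bottom row, 25 genes) against their distance in kb, for the 3 comparisons between drugs; the diamond is the gene itself and the dashed line the median of its neighbours. The median lies at -1.31 and -1.03 around GDF15 in the ATUX comparisons, and at -0.14 and 0.30 around CDKN1A in the same comparisons.

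Clones of the same drug differed in these targets as well. These comparisons use the 3 repeats of a clone as replicates, and nothing in the labels says that repeats were separate cultures, so the p-values measure only the spread between libraries, which may be technical. ATUX8H and ATUX9D differed most in the number of targets called, 1 higher and 7 lower in ATUX8H, where 46.1% of the 16504 genes tested were called.

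FAS had the largest difference between the ATUX clones, at 12.3, 13.2 and 7.71 CPM in ATUX8H and 22.4, 26.2 and 29.0 CPM in ATUX9D. The libraries did not overlap, and the log2 fold change was -1.22 ± 0.14 (edgeR adjusted p = 2.86e-07). FAS overlaps ACTA2 on the opposite strand, which drew 1318 counts over all libraries against 10215 for FAS.

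TP53I3 was at 51.5, 47.4 and 34.2 CPM in ATUX8H and 75.2, 70.0 and 73.8 CPM in ATUX9D (-0.72 ± 0.10, adjusted p = 1.58e-06). MDM2 was at 100.5, 104.6 and 80.6 CPM in ATUX8H and 159.7, 162.7 and 142.2 CPM in ATUX9D (-0.70 ± 0.07, adjusted p = 2.88e-08). BBC3 was at 3.84, 4.38 and 3.36 CPM in ATUX8H and 6.26, 5.63 and 5.74 CPM in ATUX9D (-0.60 ± 0.13, adjusted p = 0.000342). In each of the 3 genes every ATUX8H library lay below every ATUX9D library.

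SESN1 fell by 0.38, RRM2B by 0.25 and ZMAT3 by 0.25 on the log2 scale in ATUX8H relative to ATUX9D (adjusted p = 0.000983, 0.000444 and 0.0239). ZMAT3 lost its call without the first or the second ATUX8H library or the first ATUX9D library (adjusted p = 0.0792, 0.166 and 0.0599). GDF15 was the one target higher in ATUX8H, at 12.4, 11.3 and 12.6 CPM in ATUX8H and 10.5, 10.1 and 6.33 CPM in ATUX9D (0.42 ± 0.14, adjusted p = 0.0165). Its call was lost without the third library of ATUX8H (0.40, adjusted p = 0.0581), of ATUX9D (0.22, adjusted p = 0.094) or of both (0.21, adjusted p = 0.181).

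CDKN1A did not differ by the test between the ATUX clones (-0.08 ± 0.11, adjusted p = 0.567), and the third library stood below the others in ATUX8H and above them in ATUX9D. It was at 150.8, 147.3 and 103.6 CPM in ATUX8H and at 130.8, 131.0 and 164.2 CPM in ATUX9D. Without the third libraries CDKN1A was higher in ATUX8H (0.20, adjusted p = 0.00289).

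Among the SMAP clones, GDF15 differed most. It was at 16, 15.7 and 16.2 CPM in SMAP8D, 56, 45.3 and 44.9 CPM in SMAP9C and 67.1, 77 and 77.1 CPM in SMAP6G. No library of one clone reached into the range of another, and the log2 fold changes were -1.61 ± 0.12 for SMAP8D over SMAP9C, -2.21 ± 0.12 for SMAP8D over SMAP6G and -0.60 ± 0.11 for SMAP9C over SMAP6G (adjusted p = 1.3e-09, 7.08e-12 and 0.000127). The 54 tested neighbours of GDF15 had a median of -0.49 in SMAP8D over SMAP9C and -0.20 in SMAP8D over SMAP6G, and GDF15 lay below all 54 in both. In SMAP9C over SMAP6G the same 54 had a median of 0.28, with 27 called higher and 1 lower, while GDF15 was lower.

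CDKN1A took another order, at 59.9, 66.1 and 66 CPM in SMAP8D, 86.6, 83.7 and 83.1 CPM in SMAP9C and 45.8, 48.4 and 46.5 CPM in SMAP6G. It differed between all 3 pairs, by -0.40 for SMAP8D over SMAP9C, 0.45 for SMAP8D over SMAP6G and 0.85 for SMAP9C over SMAP6G (adjusted p = 0.00891, 0.00503 and 9.08e-06). FAS was lower in SMAP9C than in both other clones, at 18.8, 18.8 and 16.8 CPM in SMAP9C, against 28.5, 28.9 and 28.8 CPM in SMAP8D and 28.4, 27.5 and 25.2 CPM in SMAP6G.

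In SMAP8D over SMAP9C, 2 targets were higher (FAS 0.66, RRM2B 0.14) and 3 lower (GDF15, BBC3 -0.42 and CDKN1A), where 35.1% of genes were called. Between SMAP8D and SMAP6G, 2 were higher (CDKN1A and MDM2 at 0.24) and 2 lower (GDF15 and BBC3 at -0.60), where 34.8% were called. Between SMAP9C and SMAP6G, 1 was higher (CDKN1A) and 3 were lower (GDF15, FAS -0.57 and RRM2B -0.20), where 39.7% were called. RRM2B lost its call between SMAP8D and SMAP9C without any 1 library of SMAP9C or without the first or the third of SMAP8D (adjusted p from 0.0639 to 0.174), and BBC3 without the first library of either clone (0.0559 without that of SMAP8D and 0.084 without that of SMAP9C). With no filter on low counts neither was called (RRM2B 0.0537, BBC3 0.0769). MDM2 lost its call between SMAP8D and SMAP6G without the first SMAP8D library (adjusted p = 0.051) or the second SMAP6G library (0.0942).

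Between the Sorafenib clones, 1 target was higher and 2 were lower in Sor6G than in Sor9H, where 33.7% of genes were called. GDF15 was at 97.6, 101.2 and 104.5 CPM in Sor6G and 64.2, 55.2 and 61.3 CPM in Sor9H (0.75 ± 0.10, adjusted p = 9.93e-06). TP53I3 was at 27.1, 31.5 and 29.8 CPM in Sor6G and 36.5, 39.7 and 41.4 CPM in Sor9H (-0.41 ± 0.10, adjusted p = 0.00226). FAS was at 12.6, 14.7 and 15.9 CPM in Sor6G and 17.8, 22.1 and 20.3 CPM in Sor9H (-0.48 ± 0.14, adjusted p = 0.00924). The clones did not overlap in any of the 3, and FAS lost its call without the first Sor6G library (adjusted p = 0.0721) or the second Sor9H library (0.0539).

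**Figure D4:**
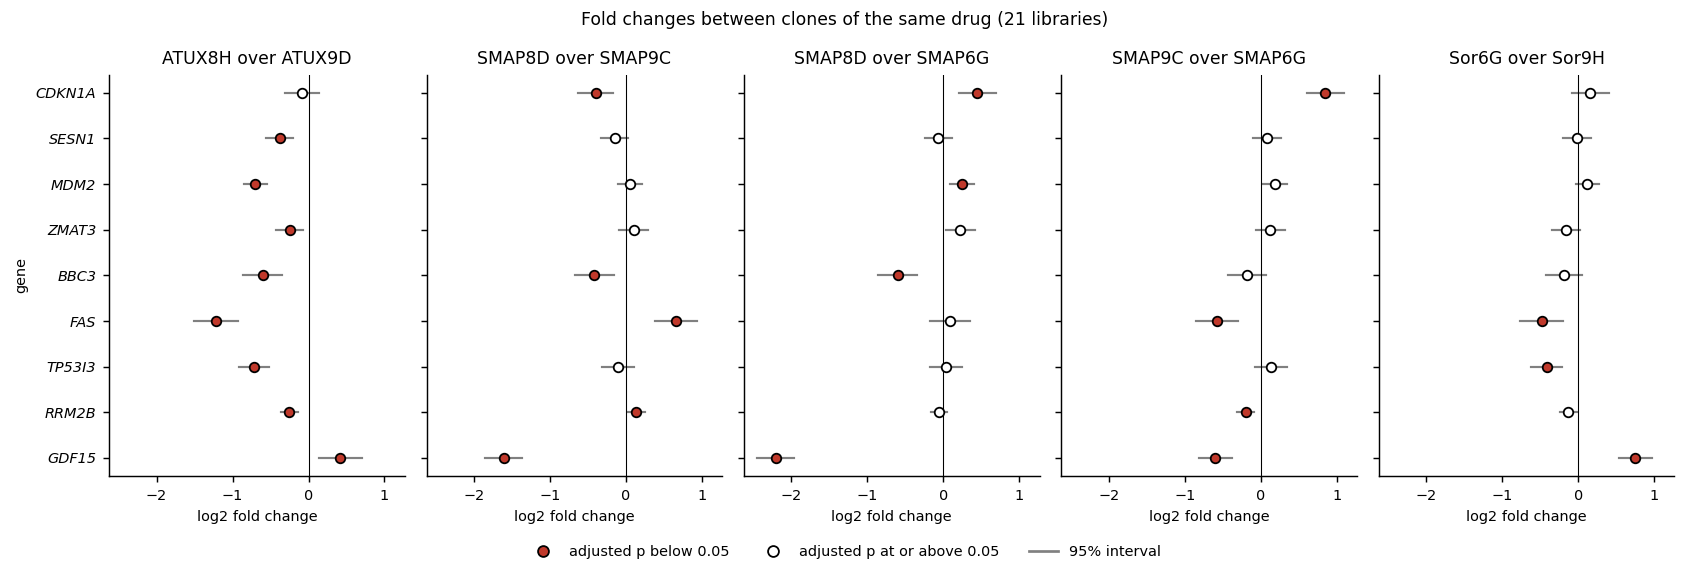
Log2 fold changes (horizontal axes) of the 9 targets between clones of the same drug, with 95% intervals from edgeR on 21 libraries; filled points passed an adjusted p of 0.05. In ATUX8H over ATUX9D 7 targets are filled to the left of 0, and GDF15 lies at -1.61 and -2.21 in the SMAP8D panels.

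The targets did not follow one order over the clones. CDKN1A was ordered ATUX9D, ATUX8H, SMAP9C, SMAP8D, Sor6G, SMAP6G and Sor9H by mean CPM, and the neighbours ATUX9D and ATUX8H, Sor6G and SMAP6G, and SMAP6G and Sor9H overlapped. GDF15 was ordered Sor6G, SMAP6G, Sor9H, SMAP9C, SMAP8D, ATUX8H and ATUX9D, and only Sor9H and SMAP9C overlapped. On log2 CPM of the 7 clone sums, which share library preparation and depth range, MDM2 went with TP53I3 (Pearson r = 0.94) and ZMAT3 (0.88). TP53I3 went with ZMAT3 (0.84), and CDKN1A with MDM2 (0.79) and TP53I3 (0.765). CDKN1A went against GDF15 (-0.85), and FAS went with RRM2B (0.83). These correlations over 7 clones are descriptions.

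The spread between drugs took a larger share of the variance over clones for CDKN1A (87.4%), ZMAT3 (84.6%) and MDM2 (80.3%) than for RRM2B (34.4%) and FAS (26.8%). GDF15 (74.7%), TP53I3 (73.9%), BBC3 (63.5%) and SESN1 (56.7%) lay between. The median over genes of at least 5 CPM was 77.9%, and only CDKN1A, ZMAT3 and MDM2 lay above it. GDF15 had the widest range over clones, 3.45 on the log2 scale, and RRM2B the narrowest, 0.38, against a median of 0.90 over genes of at least 5 CPM.

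Per kilobase of the deposited gene length, CDKN1A had the highest mean level of the 9 over clones at 26.6 CPM per kb, followed by GDF15 at 22.0, RRM2B at 20.4 and TP53I3 at 17.3. MDM2 was at 6.25, SESN1 at 5.51, FAS at 4.88, ZMAT3 at 4.18 and BBC3 at 1.94 CPM per kb. GDF15 ranged most, from 4.31 CPM per kb in its lowest clone to 48.5 in its highest. The order differed by drug, since CDKN1A was at 45.2 CPM per kb in ATUX, 21.4 in SMAP and 15.7 in Sorafenib clones, GDF15 at 5.06, 22.1 and 38.7, and RRM2B at 18.7, 21.1 and 21 in the same order.

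Among 11032 genes of at least 5 CPM, the closest to 8 of the targets in Pearson correlation over the 7 clones were FBXL6 (0.99) for CDKN1A, ZC3H7A (0.98) for MDM2, TOMM40L (0.99) for ZMAT3, ASS1 (0.99) for SESN1, TTC30B (0.98) for BBC3, NFKB1 (0.94) for FAS, LINC01137 (0.98) for RRM2B and RP11-418J17.1 (0.98) for GDF15. None of these genes is one of the 9, and each value rests on 7 points.

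TP73 and TP63, which encode relatives of p53, differed between the drugs. TP73 averaged 13.5 ± 7.92 CPM in ATUX clones, against 2.32 ± 1.28 CPM in SMAP and 0.274 ± 0.0719 CPM in Sorafenib clones. It was higher in ATUX than in SMAP clones (log2 fold change 2.58 ± 0.62, adjusted p = 0.048), higher in ATUX than in Sorafenib clones (5.64 ± 0.84, adjusted p = 0.00727) and higher in SMAP than in Sorafenib clones (3.06 ± 0.74, adjusted p = 0.0211). TP63 went the other way, at 0.301 ± 0.269 CPM in ATUX, 2.77 ± 0.478 CPM in SMAP and 4.04 ± 0.181 CPM in Sorafenib clones. Its log2 fold change was -3.17 in ATUX over SMAP (adjusted p = 0.0249) and -3.73 in ATUX over Sorafenib (adjusted p = 0.00983), and it was not called in SMAP over Sorafenib (-0.56, adjusted p = 0.421). Between ATUX and SMAP clones, TP73 lost its call without ATUX9D (1.80, adjusted p = 0.172) or without any 1 of the SMAP or Sorafenib clones (0.0719 to 0.0918) or with no filter (0.0699), and TP63 without any 1 of the SMAP or Sorafenib clones (0.0518 to 0.0723). TP73 also lost its calls over Sorafenib without Sor6G or Sor9H (adjusted p = 0.0504 and 0.0536 for ATUX, 0.121 and 0.1 for SMAP), and for SMAP without SMAP8D (0.0524) or with limma-voom (0.147).

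Of 14 regulators of p53, 13 were tested and 0 were called by edgeR between ATUX and SMAP clones, with 2 at an unadjusted p below 0.05, 1 called by DESeq2 and 1 by limma-voom, where 10.3% of all genes were called. In ATUX over Sorafenib clones 1 rose and 1 fell, which is 15.4% of the 13 beside 25.8% of all genes, and in SMAP over Sorafenib clones 3 rose and 5 fell, 61.5% beside 34.5%. MDM4, the partner of MDM2 that masks the p53 activation domain, fell in ATUX relative to Sorafenib clones, at 37.1 ± 2.68 CPM in ATUX and 60.7 ± 8.3 CPM in Sorafenib (-0.70, adjusted p = 0.0185). It also fell in SMAP relative to Sorafenib clones (27.7 ± 2.47 CPM in SMAP, -1.15, adjusted p = 0.0022). HIPK2, a kinase that phosphorylates p53, was at 184.5 ± 29.5 CPM in SMAP and 576.0 ± 73.8 CPM in Sorafenib (-1.66, adjusted p = 0.0143). PPM1D, the phosphatase WIP1 that is itself a p53 target, was at 12.4 ± 0.363 CPM in SMAP and 5.68 ± 1.39 CPM in Sorafenib (1.11, adjusted p = 0.0148). The MDM4 call of ATUX over Sorafenib was lost without ATUX9D or Sor6G (adjusted p = 0.0764 and 0.0865), that of HIPK2 without Sor6G or Sor9H (0.0775 and 0.0584) and that of PPM1D without Sor9H (0.0918). CDKN2A, whose product ARF restrains MDM2, was at 0 CPM in all 21 libraries, which allows up to 0.143 CPM in the smallest library (3 counts, counting error only).

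A list of 39 other p53 targets moved in both directions, with 37 of them tested. In ATUX over SMAP clones 3 rose and 2 fell (median 0.37), in ATUX over Sorafenib 6 rose and 3 fell (median 0.32), and in SMAP over Sorafenib 8 rose and 8 fell (median -0.11). Those are 13.5, 24.3 and 43.2% of the list, beside the 10.3, 25.8 and 34.5% of all genes given above. PLK2, a polo-like kinase, and E2F7, a repressor of cell cycle genes, were higher in ATUX than in SMAP clones (1.05 and 1.31, adjusted p = 0.0236 and 0.0332). PLK2 lost its call without ATUX8H, ATUX9D or SMAP8D (adjusted p = 0.0618, 0.0717 and 0.0676), and E2F7 without ATUX8H, ATUX9D, SMAP9C, Sor6G or Sor9H (0.0866, 0.0823, 0.109, 0.0573 and 0.0567). PLK2 and E2F7 were highest in Sorafenib clones. PLK2 was at 150.2 ± 2.74 CPM in ATUX, 73.6 ± 15.8 CPM in SMAP and 182.4 ± 27.3 CPM in Sorafenib. E2F7 was at 49.5 ± 2.21, 20.3 ± 6.72 and 67.4 ± 11.1 CPM in the same order. Both fell in SMAP over Sorafenib (-1.32 and -1.75, edgeR adjusted p = 0.00425 and 0.00516), and neither was called in ATUX over Sorafenib (-0.27 and -0.44). The 2 that fell in ATUX relative to SMAP clones were CMBL and RPS27L (-1.54 and -0.53, edgeR adjusted p = 0.0233 and 0.0421). CMBL was at 67.1 ± 23.7 CPM in ATUX and 198.7 ± 46.7 CPM in SMAP. Its call was kept in 12 of 14 alternatives and that of RPS27L in 5 of 14. CCNG1, which encodes cyclin G1, was at 141.9 ± 23.8 CPM in ATUX and 64.1 ± 4.84 CPM in Sorafenib (1.16, adjusted p = 0.00631). PERP, a component of desmosomes as well as a p53 effector in apoptosis, was at 994.1 ± 126.1 CPM in ATUX, 735.2 ± 72.5 CPM in SMAP and 111.2 ± 24.4 CPM in Sorafenib, with log2 fold changes over Sorafenib of 3.17 for ATUX and 2.71 for SMAP (adjusted p = 0.00123 and 0.000716).

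Some arrest, apoptosis, repair and metabolism genes of that list fell relative to Sorafenib clones, beside the 6 that rose for ATUX and the 8 that rose for SMAP. SFN, an arrest gene of the list, was among those that rose (1.88 for ATUX and 2.14 for SMAP, edgeR adjusted p = 0.0336 and 0.0149). Both SFN calls were lost with no filter (edgeR adjusted p = 0.121 and 0.0636). TNFRSF10B, the TRAIL receptor DR5, was at 66.4 ± 4.12 CPM in ATUX, 51.5 ± 1.48 CPM in SMAP and 126.2 ± 18.3 CPM in Sorafenib (log2 fold changes over Sorafenib of -0.92 for ATUX and -1.31 for SMAP, adjusted p = 0.00644 and 0.0012). GADD45A fell in SMAP relative to Sorafenib clones (-1.47, adjusted p = 0.0062), and so did DDB2, a sensor of ultraviolet damage (-1.55, adjusted p = 0.00473). SESN2, the sestrin related to SESN1, was at 20.4 ± 9.74 CPM in ATUX, 22.0 ± 4.17 CPM in SMAP and 114.0 ± 38.3 CPM in Sorafenib (-2.49 for ATUX and -2.40 for SMAP, adjusted p = 0.00893 and 0.00422). SESN1 itself averaged 27.8 ± 5.15 CPM in ATUX, 30.9 ± 1.58 CPM in SMAP and 24.6 ± 0.22 CPM in Sorafenib and was not called.

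The partners of single targets gave further contrasts. RRM2, the S-phase small subunit of ribonucleotide reductase, was at 490.4 ± 67.2 CPM in ATUX, 225.5 ± 45.5 CPM in SMAP and 92.1 ± 35.1 CPM in Sorafenib and was called in all 3 comparisons (1.14, 2.43 and 1.29, adjusted p = 0.0476, 0.00529 and 0.0165). RRM2B averaged 103.6 ± 12.7 CPM in ATUX, 117.2 ± 8.11 CPM in SMAP and 116.7 ± 7.54 CPM in Sorafenib and was called in none. The RRM2 call between ATUX and SMAP was lost without ATUX8H, ATUX9D, SMAP8D, SMAP9C or SMAP6G (adjusted p = 0.0798, 0.153, 0.0718, 0.13 and 0.0999) or without the third ATUX libraries (0.0593), and that between SMAP and Sorafenib without Sor9H (0.0724). CDKN1B, which encodes p27, a relative of p21, was at 43.2 ± 4.06 CPM in ATUX, 50.3 ± 5.04 CPM in SMAP and 134.3 ± 16.9 CPM in Sorafenib (-1.63 for ATUX and -1.43 for SMAP over Sorafenib, adjusted p = 0.00265 and 0.00125). It was the 1 called of 4 such inhibitors tested, 25.0% beside 25.8 and 34.5% of all genes. Of 13 BCL2 family genes tested besides BBC3, 1 rose and 3 fell in ATUX over Sorafenib (30.8%). In SMAP over Sorafenib 3 fell (23.1%). BMF fell in both (-4.11 and -5.53, edgeR adjusted p = 0.0201 and 0.00422), and BCL2L1 fell in SMAP over Sorafenib (-1.77, edgeR adjusted p = 0.00283). BMF was at 6.18 ± 1.54 CPM in ATUX and 2.34 ± 1.17 CPM in SMAP. The Sorafenib clones were far apart, at 31.0 CPM in Sor6G and 183.5 CPM in Sor9H. The BMF call of ATUX over Sorafenib was kept in 10 of 14 alternatives. It was lost with no filter (edgeR adjusted p = 0.0979), and the log2 fold change was -2.33 without Sor9H. BCL2L11, which encodes the BH3-only protein BIM, was at 43.1 ± 3.31 CPM in ATUX and 133.3 ± 18.2 CPM in Sorafenib (-1.61, adjusted p = 0.0131), a call lost without ATUX9D, Sor6G or Sor9H (adjusted p = 0.0573, 0.0603 and 0.0503).

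GDF15 was set beside a list of 10 stress genes, among them ATF4 and its targets. In ATUX over Sorafenib clones, 9 of the 10 fell and 0 rose, with a median of -2.0, and in SMAP over Sorafenib clones 7 fell and 0 rose, with a median of -1.88. In ATUX over SMAP clones 1 rose (PPP1R15A, 0.72, edgeR adjusted p = 0.0345, kept in 6 of 14 alternatives) and 1 fell, with a median of -0.18. Over all genes 25.8, 34.5 and 10.3% were called in the same order. GDF15 was higher in ATUX8H over ATUX9D and Sor6G over Sor9H, where 7 and 5 of the list rose and 0 fell. It was lower in SMAP8D over SMAP9C, where 2 fell and 0 rose. It was also lower in SMAP8D and SMAP9C over SMAP6G, where 2 and 5 rose and 0 fell. The shares of all genes called in these pairs are given above. TRIB3, a pseudokinase induced by ATF4, was at 27 ± 21 CPM in ATUX, 36.0 ± 7.22 CPM in SMAP and 244.0 ± 70.3 CPM in Sorafenib (-3.19 and -2.78 over Sorafenib, adjusted p = 0.0127 and 0.00791). DDIT4, an inhibitor of mTORC1, was at 49.2 ± 28.5 CPM in ATUX and 253.8 ± 59.5 CPM in SMAP (-2.35, adjusted p = 0.0293). DDIT4 lost that call without ATUX9D or any 1 of the SMAP clones (adjusted p from 0.052 to 0.082) or with no filter (0.0918), and TRIB3 its call for ATUX without Sor6G (0.0535) or with no filter (0.056). GFRAL, the receptor of GDF15, was at 0 CPM in all 21 libraries.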

How the data were processed

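RNA-seq counts of 21 libraries from 7 Panc-1 clones were used. The authors deposited raw read counts, whole numbers for each gene in each library, beside gene positions, lengths and GC content in percent, per the file headers. Tools named in the submitters' processing notes are featureCounts 1.5.3, STAR 2.5.2b, Bowtie2 2.3.3.1, cutadapt 1.15 and SAMtools 1.5, with the build GRCh38. The library kit keeps the strand, per the labels' protocols. The counting's strand setting and annotation are unstated in the labels, and overlapping genes on opposite strands may share reads. Columns were matched to samples by title, and 0 belonged to another series.

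For comparisons between drugs, the counts of each clone's 3 libraries were summed and fitted in R 4.3.3 by edgeR 4.0.16 (TMM, filterByExpr, robust quasi-likelihood F test, two-sided, drug as factor, 18613 genes tested). Comparisons between clones used all 21 libraries (16504 genes tested). P-values were adjusted by Benjamini-Hochberg over all genes tested, and a call is an adjusted p below 0.05. All 9 members passed the filter on low counts. P-values between drugs measure the spread between clones. Alternatives were RLE size factors, no filter, DESeq2 1.42.0, limma 3.58.1 (voom), all 21 libraries, a replicate block, and leaving out clones or libraries. The fits were tested on simulated data. No pair of repeats lay within sampling noise (chi-square per degree of freedom at least 2.26).

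Repeat numbers are shared between clones. Deviations from the clone mean in same-numbered libraries of ATUX8H and ATUX9D correlated at r = 0.12, 0.15 and 0.21 for the 3 pairs. Libraries with different numbers were not compared, and the third libraries of both clones stood apart. These values therefore cannot show whether the numbers pair the libraries. The members and lists were chosen with earlier results of these data known. All 9 members are named, and some genes of the lists are not reported here. From the other lists, names were taken from up to 2 called genes per direction with the largest fold and a mean of 1 CPM or more in the drug with the higher level. SCO2 stands under 2 overlapping IDs, and the one paired with the symbol was used.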

Additional observations from a re-analysis of the deposited data

How the results depend on the processing

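Over 9 targets and 8 comparisons, 837 alternative values were computed, of which 722 kept direction and call, 57 lost the call, 39 gained it and 19 changed sign. Of these 19, 1 was called, CDKN1A in ATUX8H over ATUX9D at 0.20 without the third ATUX libraries, an alternative chosen after seeing the data. The other 18 were called neither there nor as reported. With 1 library left out, CDKN1A there ran from -0.174 to 0.077. With 1 clone left out, SESN1 ran from -0.343 to 0.039, BBC3 from -0.528 to 0.077 and FAS from -1.14 to 0.079 in ATUX over SMAP, above 0 only without ATUX8H. In ATUX over Sorafenib, SESN1 ran from -0.029 to 0.356 and FAS from -0.63 to 0.59, both lowest without ATUX9D. In SMAP over Sorafenib, TP53I3 ran from -0.336 to 0.079 and RRM2B from -0.065 to 0.059, both highest without Sor9H. RRM2B was also at 0.011 with RLE size factors, 0.006 with DESeq2, 0.001 with 21 libraries and 0.0 with the block added. In Sor6G over Sor9H, SESN1 was at 0.001 with no filter and at -0.057 to 0.035 with 1 library left out. The targets called in ATUX over SMAP (4) numbered 0 to 2 with 1 clone left out. Those in ATUX over Sorafenib (3) numbered 6 with 21 libraries as replicates, 6 with the replicate block added, 5 with limma-voom and 0 to 3 with 1 clone left out. Those in SMAP over Sorafenib (0) numbered 5, 5, 2 and 0 to 1 in the same order. Those in SMAP8D over SMAP9C (5) numbered 3 with no filter and 3 to 5 with 1 library left out. Fits on 21 libraries treat repeats of a clone as independent. Leaving out an ATUX or Sorafenib clone leaves 1, which is assumed to vary like the other groups. The cause of these changes was not tested.

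Over all genes, calls in ATUX over SMAP went to 3472 with DESeq2, 3933 with limma-voom, 8375 with 21 libraries, 8152 with the replicate block and 560 to 1446 with 1 clone left out, beside 1921 as reported. In ATUX over Sorafenib (4810) they went to 10378 with 21 libraries, 10216 with the block, 2780 without ATUX9D, 2142 without Sor6G and 1430 without Sor9H, and in SMAP over Sorafenib (6428) to 10972, 10788, 3364 without Sor6G and 2761 without Sor9H. In the pairing check, same-numbered libraries correlated at -0.043 to 0.037 between SMAP clones and at 0.102, 0.079 and 0.081 between Sor6G and Sor9H. Without pairs of different numbers, these values cannot show whether such libraries are paired. The block left 8 targets called between the ATUX clones, added a call for MDM2 in SMAP9C over SMAP6G (log2 difference 0.19, edgeR adjusted p = 0.0296) and changed no other call of a target, among them those of the fits on 21 libraries for the drugs. With 2 or 3 clones per drug, differences as wide as the intervals given cannot be resolved.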
